A study of Rattus norvegicus with 30 samples.

Results

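Chemokine ligands are the subject here, 10 genes of the 32545 in the deposited count table, taken by their symbols: Ccl2, Ccl5, Ccl7, Ccl20, Cxcl1, Cxcl9, Cxcl10, Cxcl12, Cxcl16 and Cx3cl1. Each symbol stood in the table once. The mRNAseq libraries came from the right kidney of male Sprague-Dawley (SD) rats without any genetic change, 15 from the renal cortex (Cx) and 15 from the outer medulla (OM). The LS rats were kept on a diet with 0.4% NaCl, and the HS14 and HS21 rats were killed 14 and 21 d after a change to 4% NaCl, with 5 libraries per tissue and diet. Replicates 1 to 5 are LS, 6 to 10 HS14 and 11 to 15 HS21 in both tissues. Per the methods the kidneys of 5 rats per group were each divided into Cx and OM, so the zones of a group share rats, but no source says whether an equal number in Cx and OM means the same rat. The age of these rats is not given in the sources used here. All tissue was bulk, so the libraries hold every cell type of the zone that was cut out.

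Chemokines are small secreted proteins that draw leukocytes along a concentration gradient by binding G protein-coupled receptors on them. Some are made at low levels until NF-kB, a transcription factor activated by cytokines such as interleukin-1, or interferon gamma switches their genes on. Others are made constantly, and a pair of them, Cxcl16 and Cx3cl1, are anchored in the cell membrane until proteases shed them. In the kidney, tubule cells, endothelium, fibroblasts and resident or infiltrating leukocytes can all be sources of chemokines.

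Library totals ran from 5408126 to 21842843 counted read pairs. The lowest belonged to OM HS14 replicate 10, and every other library had at least 12748841. In the paper's mapping summary replicate 10 also had the lowest exonic and the highest intronic share of the 30 libraries. The sum of the cortical markers Slc12a3, Slc34a1 and Slc5a2 was 6277 to 9089 CPM (counts scaled to a common library size by TMM over the 30 libraries) in the Cx and 141 to 4804 CPM in the OM. The highest OM value belonged to LS replicate 2, against an OM LS median of 1088 CPM. The thick ascending limb markers Umod and Slc12a1 summed to 1148 to 2758 CPM in the Cx and 9739 to 20693 CPM in the OM, so each library carried the markers of its labelled zone. Within the Cx this sum was 1148 to 1783 CPM in LS and 2005 to 2758 CPM in HS21, without overlap. The cortical sum was 8140 to 8625 CPM in Cx LS and 6277 to 9089 CPM in Cx HS21. HS21 replicates 11, 12, 14 and 15 held 6277, 7564, 6434 and 6526 CPM, below every Cx LS library, and replicate 13 held 9089 CPM. The part of the cut or the cell mix in the ligand values was not tested. P-values measure only the spread between the 5 numbered samples of a group.

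Per gene length, the membrane-anchored and constantly made ligands stood far above the inducible ones. On the FPKM scale (fragments scaled by gene length and library size, which can be compared between genes), the Cx LS median was 95.5 for Cxcl16, 51.0 for Cx3cl1 and 26.6 for Cxcl12. Cxcl10 followed with 7.60, Ccl5 with 6.48, Ccl2 with 3.47, Cxcl9 with 0.865, Cxcl1 with 0.593, Ccl20 with 0.586 and Ccl7 with 0.0897. Only the steps from Cx3cl1 to Cxcl12, from Cxcl12 to Cxcl10 and from Ccl2 to Cxcl9 were larger than the range of the 5 libraries, and the other neighbours in this order overlapped. In the Cx at HS21, Ccl5 had moved up to the second place with a median of 48.1 FPKM, but its libraries ranged from 10.3 to 133 FPKM and overlapped those of Cxcl16, Cx3cl1, Cxcl12 and Cxcl10. In OM LS the order began with Cx3cl1 at 41.7, Cxcl12 at 41.0 and Cxcl16 at 35.0 FPKM and ended with Cxcl1 at 0.540, Ccl7 at 0.466 and Ccl20 at 0.214 FPKM.

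**Figure D1:**
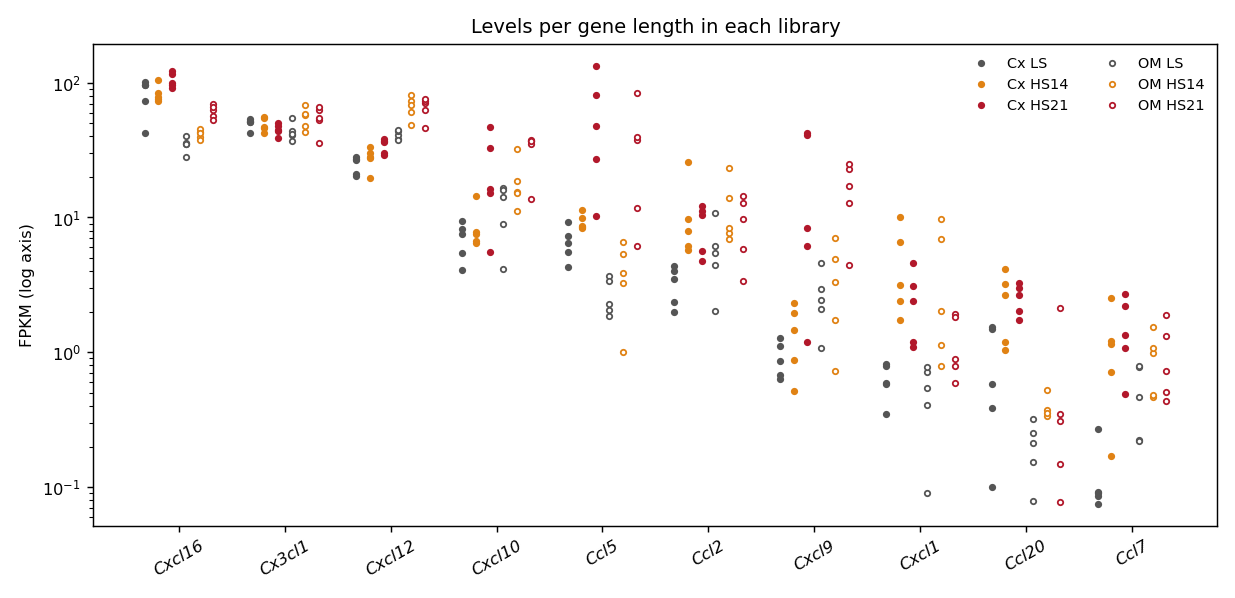
Deposited FPKM of the 10 ligands (log axis), 1 point per library, Cx filled and OM open, coloured by diet; the single value of 0 (Ccl20, OM HS14 replicate 10) cannot be drawn on this axis. Cxcl16, Cx3cl1 and Cxcl12 have the highest medians in 5 of the 6 groups, and in Cx HS21 the spread of Ccl5 runs from 10.3 to 133 FPKM.

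The stretch of 250 bases before the gene start is shown for Cxcl1 and Cxcl10, because NF-kB and interferon responses act through such sequence and both genes moved with the diet in the Cx. The sequences are those of RefSeq on build GRCr8, written 5′ to 3′ on the gene's own strand with every match to the NF-kB consensus in capitals. Of the 10 ligands, 8 were matched in that table, and Ccl2 and Ccl5 were not.
Cxcl1 (chr14:17479322-17479571, minus strand): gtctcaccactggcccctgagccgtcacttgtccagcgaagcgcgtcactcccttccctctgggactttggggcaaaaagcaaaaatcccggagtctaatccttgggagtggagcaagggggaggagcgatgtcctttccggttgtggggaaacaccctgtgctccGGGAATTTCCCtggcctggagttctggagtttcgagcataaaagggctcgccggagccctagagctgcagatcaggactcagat
Cxcl10 (chr14:15988816-15989065, plus strand): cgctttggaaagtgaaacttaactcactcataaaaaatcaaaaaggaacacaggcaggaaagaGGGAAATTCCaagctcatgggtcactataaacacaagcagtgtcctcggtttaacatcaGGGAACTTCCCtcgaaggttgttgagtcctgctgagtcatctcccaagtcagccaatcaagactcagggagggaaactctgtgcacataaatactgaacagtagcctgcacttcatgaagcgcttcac

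The NF-kB consensus, searched on both strands, was found in 4 of the 8 upstream stretches and in 6.33% of 33469 promoters of the same length. In Cxcl1 it began 84 bases before the gene start and in Cxcl10 at 187 and 128 bases, and the capitals that run over 11 bases hold a match on each strand. Ccl20 and Ccl7 carried 1 match each, shown with 10 bases on either side.
Ccl20 (chr9:91837060-91837089, plus strand): aatcaatgggGGAAAACCCCgggtgagaac
Ccl7 (chr10:67514026-67514055, plus strand): tcattccaaaGGAAGATCCCgccctaactg
Cxcl10 also held the core of the interferon-stimulated response element, GAAA and GAAA with any 2 bases between them, close to the far end of its stretch.
Cxcl10 (chr14:15988816-15988842, plus strand): cgctttgGAAAGTGAAActtaactcac
This core was in 1 of the 8 stretches and in 3.41% of all promoters. The interferon gamma-activated site, TTC and GAA with any 3 bases between them, was in 0 of the 8 and in 7.67% of all, the TATA box TATAAA in 3 of the 8 (Ccl7, Cxcl10 and Cx3cl1) and in 12.9%, and the AP-1 site TGANTCA in 2 of the 8 (Ccl7 and Cxcl10) and in 6.34%. A match describes the letters only, and no binding was measured in these samples.

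In the Cx, 1 ligand rose by HS14 and 7 had risen by HS21. With edgeR's quasi-likelihood test and Benjamini-Hochberg adjustment over all genes tested, Cxcl1 was the 1 of 9 testable ligands called at HS14 against LS (adjusted P under 0.05), where 1.14% of all genes were raised, and none of the 9 was lowered, against 1.18%. At HS21 Ccl2, Ccl5, Ccl20, Cxcl1, Cxcl9, Cxcl10 and Cxcl12 were raised, 7 of 9, against 18.9% of all genes, and none was lowered, against 20.5%. When libraries were scaled by total counts alone, 4401 genes were raised and 1653 lowered in that comparison in place of 2702 and 2936, with a shift of the median log2 ratio over all genes from 0.00 to 0.13, and the same 7 ligands were called. The median log2 ratio of the testable ligands was 0.51 at HS14 and 1.59 at HS21, beside −0.0021 and 0.0046 over all genes. Ccl7 had too few counts for the filter in both comparisons. Both comparisons use the same 5 LS libraries. In a bulk sample, more cells that make a ligand and more of its RNA per cell cannot be told apart.

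From HS14 to HS21 in the Cx, Ccl5 and Cxcl9 rose, 2 of 10 ligands, where 6.50% of all genes were raised. Total-count scaling gave 2084 genes raised and 644 lowered there in place of 935 and 1395, with the median log2 ratio over all genes at 0.13 in place of 0.01, and added Cxcl10 and Cxcl16. In the OM, 0 of 8 testable ligands was called at HS14, where 0.00694% of genes (1 gene) were raised. There 3 ligands and 5.73% of all genes had an unadjusted P under 0.05. DESeq2 called 2, Cxcl1 and Cxcl12, a count to which the edgeR share of genes raised does not apply. At HS21 Ccl5, Cxcl9 and Cxcl16 rose in the OM, 3 of 8, against 0.639% of all genes. With total-count scaling only Cxcl16 of these was called (adjusted P = 0.0593 for Ccl5 and 0.0757 for Cxcl9), and 35 genes were raised in place of 93. Between HS14 and HS21 in the OM edgeR called 0 of 9 ligands and 0% of the 14499 genes. There 5 ligands and 3.77% of all genes had an unadjusted P under 0.05, and DESeq2 called 3 ligands among 30 genes. The median log2 ratio to LS of the testable OM ligands was 0.62 at HS14 and 1.02 at HS21, beside −0.023 and −0.031 over all genes.

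**Figure D2:**
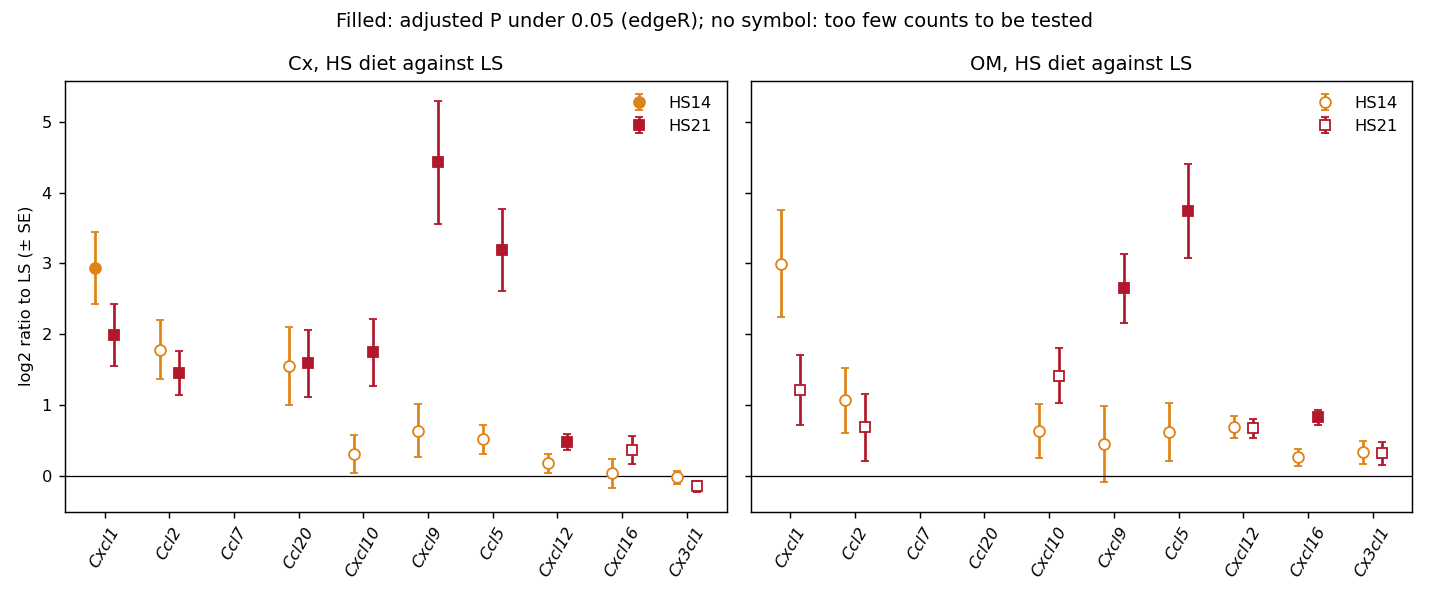
Log2 ratio to LS (± SE, edgeR, 5 against 5 libraries) of each ligand in the Cx (left) and the OM (right), circles for HS14 and squares for HS21, filled where the adjusted P was under 0.05; a ligand without a symbol had too few counts. Cxcl1 is highest at HS14 in both tissues, with log2 ratios of 2.94 and 2.999, and Cxcl9 and Ccl5 are highest at HS21.

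Cxcl1, the ligand of the neutrophil receptor Cxcr2 (ENSRNOG00000002802, Rnor_6.0 chromosome 14, 18743685 to 18745457), rose early. In Cx LS it stood at 0.764, 0.549, 0.539, 0.735 and 0.321 CPM in replicates 1 to 5, and in Cx HS14 at 2.26, 1.60, 9.46, 6.14 and 2.92 CPM in replicates 6 to 10. Cx HS21 replicates 11 to 15 held 4.32, 2.26, 1.10, 2.88 and 1.02 CPM. Every HS library lay above every LS library, with the highest value in replicate 8. The log2 ratio to LS was 2.94 ± 0.51 (SE, adjusted P = 0.0155, edgeR, n = 5 and 5) at HS14, or 7.66-fold, and 1.99 ± 0.43 (adjusted P = 0.00381) at HS21. The difference between HS21 and HS14, −0.95 ± 0.52, did not pass (adjusted P = 0.232). These are low counts, 5 to 10 read pairs in a Cx LS library and 22 to 152 in a Cx HS14 library.

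In the OM, Cxcl1 was at 0.676, 0.0854, 0.382, 0.508 and 0.745 CPM in LS and at 1.90, 1.07, 9.23, 6.49 and 0.714 CPM in HS14. Replicates 8 and 9 were again the highest, and replicate 10 lay within the LS range. The log2 ratio of 2.999 ± 0.76 was as large as in the Cx but did not pass the test (adjusted P = 0.427, edgeR, n = 5 and 5), while DESeq2 called it (log2 ratio 3.02, adjusted P = 0.0136). It was 2.99 when the shallow HS14 replicate 10 and the LS replicate 2 with cortical markers were both left out, a choice made after seeing the data. OM HS21 held 1.80, 0.840, 0.567, 1.74 and 0.744 CPM, with a log2 ratio to LS of 1.22 ± 0.49 (adjusted P = 0.366).

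Ccl2, also known as MCP-1, the main attractant of Ccr2-bearing monocytes (ENSRNOG00000007159, chromosome 10, 69412017 to 69413870), moved alongside Cxcl1. Cx LS replicates 1 to 5 held 2.90, 3.37, 3.62, 1.98 and 1.67 CPM, HS14 replicates 6 to 10 held 4.87, 5.16, 21.8, 8.22 and 6.69 CPM, and HS21 replicates 11 to 15 held 10.3, 8.83, 3.94, 9.28 and 4.69 CPM. No HS library was as low as the highest LS library, and replicate 8 stood apart at the top. At HS21 the log2 ratio was 1.45 ± 0.31 (adjusted P = 0.00354, edgeR, n = 5 and 5). At HS14 it was 1.78 ± 0.42 with an adjusted P of 0.0502, just short of the threshold, and 4 of 6 other fits and 2 of 10 fits without a library called it. In the OM the ranges of LS (1.71 to 9.21 CPM), HS14 (5.71 to 19.8 CPM) and HS21 (2.85 to 12.3 CPM) overlapped, and the log2 ratios of 1.06 and 0.68 did not pass (adjusted P = 0.839 and 0.69, edgeR). HS14 replicate 8 was the highest library of the OM too.

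Ccl7 (MCP-3, ENSRNOG00000000239), which also acts on Ccr2 and lies 9216 bases from Ccl2 on chromosome 10 (69423086 to 69424979), was almost absent from Cx LS, with 1 to 3 read pairs per library. It reached 2 to 35 read pairs in Cx HS14 and 6 to 35 in Cx HS21, with medians of 0.0764, 0.990 and 1.16 CPM in LS, HS14 and HS21. HS14 replicate 7 stayed within the LS range, and all HS21 libraries were above it. Without the filter on low counts the log2 ratio was 3.18 ± 0.66 at HS14 (adjusted P = 0.0327, edgeR) and 3.59 ± 0.57 at HS21 (adjusted P = 0.000455). In the OM it stood between 0.191 and 0.684 CPM in LS, 0.407 and 1.34 CPM in HS14 and 0.372 and 1.62 CPM in HS21, and the unfiltered fit gave log2 ratios of 0.86 and 0.99 that did not pass (adjusted P = 0.833 and 0.633).

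Ccl20 (ENSRNOG00000015992, chromosome 9, 88918433 to 88921001), which binds Ccr6 on Th17 cells, B cells and dendritic cells, was a cortical ligand in these samples. Cx LS held 0.306, 0.0784, 0.462, 1.18 and 1.22 CPM, HS14 0.823, 0.946, 3.30, 2.13 and 2.53 CPM, and HS21 2.61, 2.39, 1.59, 2.09 and 1.36 CPM. All HS21 libraries were above all LS libraries, and HS14 replicates 6 and 7 were within the LS range. The log2 ratio was 1.59 ± 0.47 at HS21 (adjusted P = 0.0193, edgeR, n = 5 and 5) and 1.55 ± 0.55 at HS14, which did not pass (adjusted P = 0.168). In the OM it did not exceed 0.425 CPM in any LS or HS14 library, and HS14 replicate 10 had 0 counts of 5408126, which allows up to 0.535 CPM (3 counts, counting error only). Among OM HS21 libraries, replicate 11 had 1.68 CPM (29 read pairs) and the other 4 between 0.0620 and 0.280 CPM. Without the filter, Ccl20 was lower in OM LS than in Cx LS by a log2 ratio of −1.95 ± 0.67 (adjusted P = 0.0483).

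**Figure D3:**
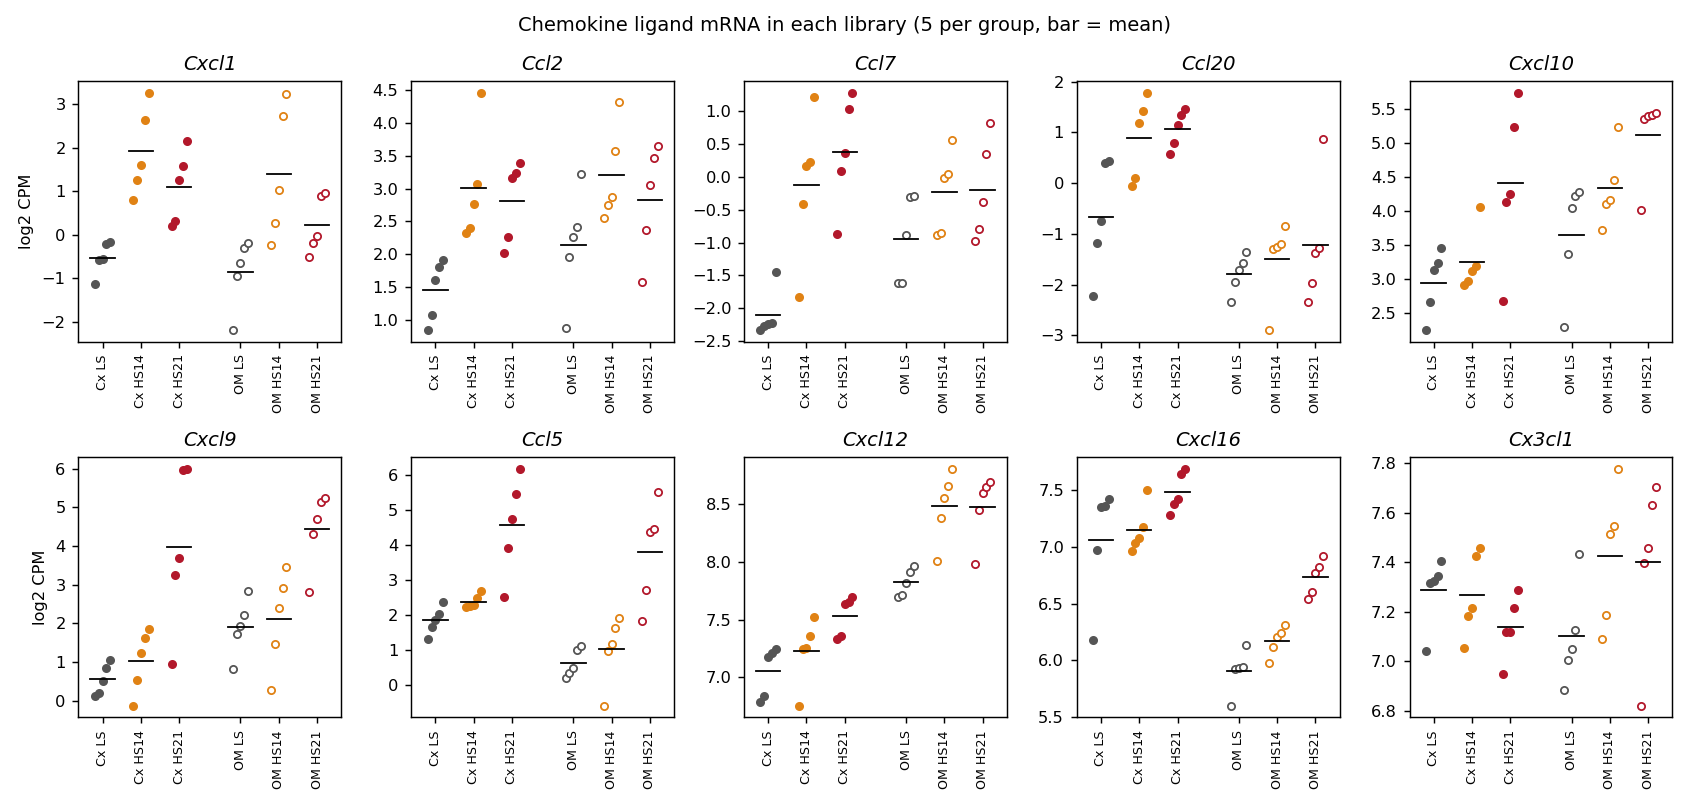
TMM log2 CPM of each ligand in every library, 5 points per tissue and diet with a bar at their mean (Cx filled, OM open; each panel has its own axis). For Cxcl1 all Cx HS libraries are above all Cx LS libraries, while 1 Cx HS21 library of Cxcl9, replicate 13, stays within the LS range.

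Neutrophil markers rose in the same Cx comparisons. Only 2 of 9 listed markers had enough counts, S100a9 and Csf3r, and both were raised in the Cx at HS14 (log2 ratios 4.28 and 1.64, adjusted P = 0.0153 and 0.0211, edgeR) and at HS21 (3.58 and 1.93). The 9 markers summed to 1.93 to 3.39 CPM in Cx LS, 4.61 to 35.6 CPM in Cx HS14 and 8.29 to 19.6 CPM in Cx HS21. Of the granule enzymes, Elane was at 0 in all Cx libraries and Mpo in all LS and HS14 libraries of the Cx. Cxcr2, the receptor of Cxcl1, had too few counts to be tested against LS. In the OM the sum was 1.11 to 4.55 CPM in LS, 10.7 to 22.5 CPM in HS14 and 7.43 to 14.8 CPM in HS21, and S100a9 was raised at HS21 (log2 ratio 3.06). Among injury markers of the tubule Lcn2, which neutrophils also express, rose in the Cx at HS14 by a log2 ratio of 1.90 (adjusted P = 0.0152) and at HS21 by 2.91. The part of neutrophils in the ligand values was not tested.

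NF-kB feedback genes and interleukin-1 rose in the same Cx comparisons. Of 11 NF-kB subunits, inhibitors and feedback genes 3 were raised at HS14 (Nfkb2, Nfkbie and Nfkbiz, log2 ratios 0.26, 0.49 and 0.72) and 7 at HS21, with none lowered in either. In the OM 0 of 11 were called by edgeR at either time, with 2 and 6 at an unadjusted P under 0.05 and 0 and 1 called by DESeq2 at HS14 and HS21. Il1b, an inducer of Cxcl1 and Ccl2, had a log2 ratio of 1.30 ± 0.19 at HS14 (adjusted P = 0.00993) and 1.93 ± 0.28 at HS21 (adjusted P = 0.000336) in the Cx. In the OM its log2 ratio was 1.59 ± 0.51 at HS14 and 1.25 ± 0.30 at HS21. Neither passed (adjusted P = 0.597 and 0.0904, edgeR). Of 3 listed inducers with an adjusted P from DESeq2 in OM HS21, 2 were raised.

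Cxcl9, the interferon gamma-induced ligand of Cxcr3, a chemokine receptor on T cells (ENSRNOG00000022242, chromosome 14, 17228856 to 17234712), had the largest ratio of the 10 ligands at HS21 in the Cx. Cx LS replicates 1 to 5 stood at 1.30, 1.02, 1.93, 0.955 and 1.67 CPM and HS14 replicates 6 to 10 at 2.95, 1.31, 3.48, 2.23 and 0.780 CPM. HS21 replicates 11 to 15 reached 12.8, 9.42, 1.80, 62.0 and 63.9 CPM. Replicates 14 and 15 were the highest and replicate 13 did not leave the LS range, so the groups overlapped at that library. The log2 ratio was 4.43 ± 0.87 at HS21 against LS (adjusted P = 0.0021, edgeR, n = 5 and 5), or 21.6-fold, 3.80 ± 0.85 at HS21 against HS14 (adjusted P = 0.0159) and 0.63 ± 0.37 at HS14 against LS (adjusted P = 0.427). In the OM it stood at 4.49, 1.62, 3.69, 3.18 and 7.04 CPM in LS, 7.45, 5.13, 10.8, 2.64 and 1.07 CPM in HS14, and 26.0, 19.6, 6.87, 35.3 and 37.9 CPM in HS21. Again replicates 14 and 15 were the highest and replicate 13 the lowest of HS21. The OM log2 ratio at HS21 was 2.65 ± 0.48 (adjusted P = 0.0405), and this call was kept in 2 of 10 fits without a library.

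Ccl5 (RANTES, ENSRNOG00000010906, chromosome 10, 70739800 to 70744315), made by T and NK cells, ranked the HS21 libraries of each tissue in the same order as Cxcl9. Within LS and HS14 the 2 orders differed. In the Cx the values were 3.97, 3.53, 5.09, 2.35 and 3.02 CPM in LS, 6.31, 5.46, 4.67, 4.61 and 4.74 CPM in HS14 and 26.6, 15.1, 5.59, 44.1 and 72.8 CPM in HS21. All HS21 libraries were above all LS libraries, by little in replicate 13 and most in replicate 15. The log2 ratio was 3.19 ± 0.58 at HS21 (adjusted P = 0.00135, edgeR, n = 5 and 5) and 2.68 ± 0.54 from HS14 to HS21 (adjusted P = 0.012), against 0.51 ± 0.20 at HS14 (adjusted P = 0.21). The OM held 2.03, 1.03, 1.14, 1.27 and 1.90 CPM in LS, 3.66, 2.99, 1.82, 2.14 and 0.535 CPM in HS14 and 20.8, 6.51, 3.46, 22.2 and 46.1 CPM in HS21. No OM HS21 library reached down into the LS range. The OM log2 ratio at HS21 was 3.74 ± 0.66 (adjusted P = 0.0377), and between 3.16 and 4.01 when 1 library was left out, with the call kept in 2 of those 10 fits. It was also lost with total counts and with limma on log2 FPKM (2.87, adjusted P = 0.0529).

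Cxcl10 (ENSRNOG00000022256), which shares the receptor Cxcr3 and lies 15926 bases from Cxcl9 (chromosome 14, 17210733 to 17212930), was measured at higher levels in LS. Cx LS held 8.64, 4.63, 9.32, 6.17 and 10.8 CPM and HS14 8.98, 7.42, 16.5, 7.72 and 8.58 CPM, with replicate 8 apart from the other 4. Cx HS21 held 17.3, 18.8, 6.28, 37.5 and 53.1 CPM, and replicate 13 again lay within the LS range. The log2 ratio at HS21 was 1.74 ± 0.47 (adjusted P = 0.0117, edgeR, n = 5 and 5). From HS14 to HS21 it was 1.44 ± 0.47 with an adjusted P of 0.0568, which became 1.69 and 0.0114 without replicate 13. In the OM, 4 of the HS21 libraries held 40.7 to 43.2 CPM and replicate 13 held 15.9 CPM, within the LS range of 4.79 to 19.2 CPM. The OM log2 ratio of 1.42 ± 0.39 did not pass (adjusted P = 0.135), while DESeq2 called it (adjusted P = 0.0133).

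Leukocyte, T cell and macrophage markers were raised in the Cx at HS21, as were Cxcl9, Ccl5 and Cxcl10. At HS21 in the Cx 9 of 9 testable leukocyte markers, 8 of 8 T cell markers and 9 of 9 macrophage markers were raised, and at HS14 5, 4 and 0 of them, and none was lowered. At HS14 9, 7 and 8 of them had an unadjusted P under 0.05, and DESeq2 called 7, 6 and 7. Among these markers Cd3e, a chain of the T cell receptor complex, had a log2 ratio of 3.95 at HS21 (adjusted P = 0.000408, edgeR), Ptprc, the pan-leukocyte CD45, 1.86 (adjusted P = 0.000266) and the macrophage complement gene C1qa 1.84 (adjusted P = 0.00152). The T cell list summed to 26.9 to 41.5 CPM in Cx LS, 48.5 to 63.1 CPM in HS14 and 62.9 to 201 CPM in HS21, with replicate 13 lowest and replicate 15 highest of HS21, and none of its 10 markers was at 0 in all libraries of a group. The macrophage list summed to 134 to 175 CPM in Cx LS, 165 to 286 CPM in HS14 and 236 to 801 CPM in HS21. NK and cytotoxic markers had 2 of 4 raised in the Cx at HS21, Nkg7 (log2 ratio 2.19) and Klrd1 (1.05). In the OM at HS21 edgeR called 6 of 9 leukocyte markers, 2 of 9 T cell markers and 0 of 9 macrophage markers. An unadjusted P under 0.05 was seen for 9, 9 and 7 of them, and DESeq2 called 8, 9 and 7 of 10. The T cell sums in the OM were 18.3 to 61.0 CPM in LS, 68.7 to 81.2 CPM in HS14 and 72.6 to 146 CPM in HS21. The part of these cells in the ligand values was not tested.

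Genes of interferon gamma signalling rose in the Cx too. Ifng itself, the gene of the cytokine, had too few counts to be tested with edgeR and was at 0 in all OM LS libraries. Of 8 testable genes 1 was raised at HS14, the transcription factor Irf1 (log2 ratio 0.60 ± 0.13, adjusted P = 0.0353, edgeR), and 6 were raised at HS21. Irf1 then had a log2 ratio of 1.81 ± 0.30 (adjusted P = 0.000744), and the feedback inhibitor Socs1 had 2.27 ± 0.53 (adjusted P = 0.00567). In the OM 0 of 8 were called, with Irf1 at 1.58 and an adjusted P of 0.0553 at HS21. There 1 and 6 had an unadjusted P under 0.05 at HS14 and HS21, and DESeq2 called 0 and 4. Markers of other cells that can make chemokines were counted too in Cx HS21. Of the testable ones 2 of 8 endothelial markers were raised and 1 lowered, 5 of 6 podocyte markers and 1 of 6 fibroblast markers were raised, and 5 of 8 tubule injury markers were raised and 1 lowered. Over all genes 18.9% were raised and 20.5% lowered in that comparison, and the endothelial and fibroblast counts were near these shares.

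**Figure D4:**
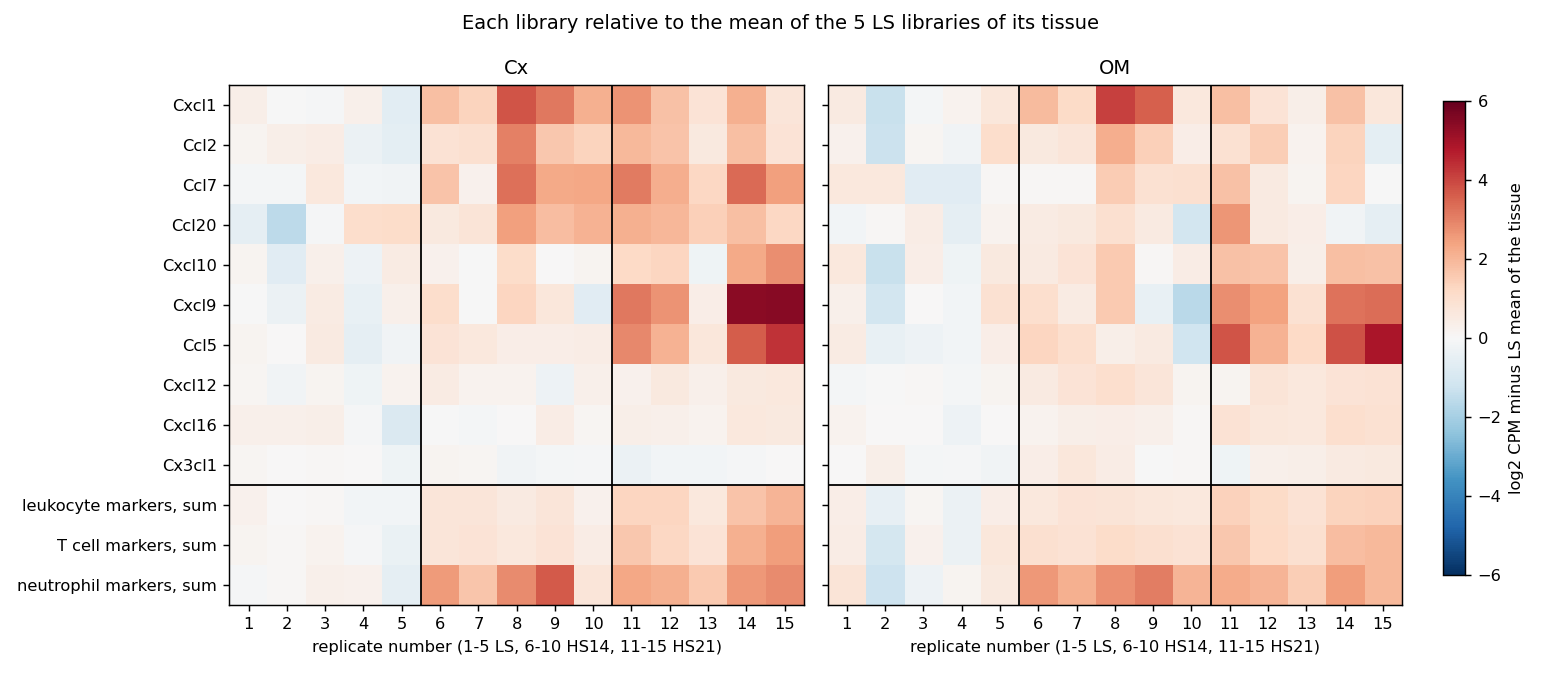
Each library's log2 CPM minus the LS mean of its tissue, for the 10 ligands and the summed markers of leukocytes, T cells and neutrophils, with replicates 1 to 15 from left to right and red for values above LS. Cxcl1 and Ccl2 are darkest at HS14 replicate 8 and Cxcl9 and Ccl5 at HS21 replicates 14 and 15, and HS21 replicate 13 is paler than these.

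The HS libraries of a group differed among themselves. Replicate 8 had the highest value of its HS14 group for Ccl2, Ccl7, Ccl20, Cxcl1, Cxcl9 and Cxcl10 in both tissues. At HS21 replicate 15 was highest for Ccl5 and Cxcl9 in both tissues, and replicate 11 for Cxcl1 and Ccl20. The highest replicate number was the same in Cx and OM for 7 of 10 ligands at HS14, 7 of 10 at HS21 and 1 of 10 in LS. Across the 15 Cx libraries Pearson's r of log2 CPM was 0.92 between Ccl2 and Cxcl1 and 0.88 between Ccl2 and Ccl7. It was 0.96 between Ccl5 and Cxcl9, 0.94 between Cxcl9 and Cxcl10 and 0.89 between Ccl5 and Cxcl10, but 0.27 between Cxcl1 and Cxcl9. In the OM the same pairs gave 0.82, 0.50, 0.92, 0.85, 0.73 and 0.29. These r values describe 15 libraries of 3 diet groups that share the LS libraries, their scaling and their RNA preparation, and differences between the groups are part of them.

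Among 13346 genes of at least 1 CPM on average in the Cx, the protein-coding genes with the highest r to Ccl5 across the 15 Cx libraries were Twf2 (0.99) and Cd37 (0.98), a tetraspanin of leukocytes. For Cxcl9 they were Ifi47 (0.97), an interferon-inducible GTPase, and RGD1305184 (0.97), and for Cxcl10 they were Cxcl11 (0.95), the third ligand of Cxcr3, and Ms4a6a (0.94). Ccl2 and Cxcl1 were each other's nearest gene, followed by Slc4a7 (0.88) for Ccl2 and Cldn1 (0.85) for Cxcl1. For Cxcl16 they were Zmynd15 (0.89) and Msrb3 (0.88), for Cxcl12 Ncr3 (0.92) and Ccdc82 (0.91), and for Cx3cl1 Fan1 (0.82) and Mon1b (0.80). Ccl20 was nearest to RGD1560289 (0.88) and Il12rb2 (0.86). In the OM libraries Cxcl9 and Ifi47 kept an r of 0.91 and Cxcl16 and Zmynd15 of 0.87, while Ccl2 and Slc4a7 gave 0.24 and Cx3cl1 and Fan1 −0.39.

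Cxcl12 (SDF-1, ENSRNOG00000013589, chromosome 4, 149261044 to 149273891), the stromal ligand of Cxcr4, changed by less than the inducible ligands but with little spread. Cx LS held 145, 114, 148, 110 and 152 CPM, HS14 184, 151, 153, 108 and 164 CPM and HS21 161, 201, 163, 199 and 207 CPM. All HS21 libraries were above all LS libraries, and HS14 overlapped both. The log2 ratio was 0.48 ± 0.11 at HS21 (adjusted P = 0.00521, edgeR, n = 5 and 5), or 1.39-fold. In the OM the 5 LS libraries ranged from 208 to 250 CPM, those of HS14 from 257 to 449 CPM and those of HS21 from 252 to 413 CPM, so neither HS group overlapped LS. The OM log2 ratios were 0.68 ± 0.16 at HS14 (adjusted P = 0.397) and 0.67 ± 0.13 at HS21 (adjusted P = 0.0521), and neither passed. DESeq2 called both (adjusted P = 0.00341 and 0.000262). Fibroblast and pericyte markers, 6 in all, summed to 326 to 604 CPM in OM LS, 610 to 1050 CPM in OM HS14 and 437 to 919 CPM in OM HS21, with none at 0. Of the 5 testable ones edgeR called 0 at either time, with 5 and 3 at an unadjusted P under 0.05 and 2 and 1 called by DESeq2, and their part in the Cxcl12 values was not tested. Of the 10 ligands, 9 were testable against LS in the Cx and 8 in the OM. Groups that did not overlap, with HS above LS, were seen for 2 ligands in Cx HS14, 6 in Cx HS21, 1 in OM HS14 and 3 in OM HS21. The 6 include Ccl7, which was not testable. Of all tested genes 2.71%, 12%, 1.04% and 2.44% had such groups.

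Cxcl16 (ENSRNOG00000026647, chromosome 10, 57060007 to 57064600), the membrane-anchored ligand of Cxcr6, rose in the OM. OM LS stood at 70.2, 60.6, 61.4, 48.3 and 60.9 CPM, HS14 at 69.2, 75.4, 79.2, 73.5 and 62.6 CPM and HS21 at 109, 97.4, 93.0, 121 and 113 CPM. Every HS21 library was above every LS and HS14 library. The log2 ratio at HS21 was 0.82 ± 0.11 (adjusted P = 0.0194, edgeR, n = 5 and 5), or 1.77-fold, and 6 of 10 fits without a library kept the call. In the Cx, LS replicate 5 was low at 72.3 CPM beside 126 to 172 CPM in the other 4, and HS21 ranged from 156 to 207 CPM. The Cx log2 ratio at HS21 was 0.37 ± 0.20 (adjusted P = 0.162).

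Cx3cl1 (fractalkine, ENSRNOG00000016326, chromosome 19, 10644244 to 10653800), the other membrane-anchored ligand, was the steadiest in the Cx. Its ranges were 132 to 169 CPM in LS, 133 to 176 CPM in HS14 and 124 to 156 CPM in HS21, all overlapping. The Cx log2 ratios were −0.023 ± 0.089 at HS14 and −0.15 ± 0.078 at HS21 (adjusted P = 0.929 and 0.147, edgeR). Without LS replicate 5, the lowest of its group, the log2 ratio at HS21 was −0.21 and passed the test. In the OM the ranges were 118 to 173, 136 to 220 and 113 to 208 CPM, with log2 ratios of 0.33 and 0.32 that did not pass. Adam10, a protease that sheds both membrane-anchored ligands, was lowered in the Cx at HS21 by a log2 ratio of −0.36 (adjusted P = 0.000799), and Dpp4, which trims several chemokines, by −0.65 (adjusted P = 4.61e-05), 2 of 5 proteases tested.

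Of the receptors that read these ligands, those with enough counts were raised in the Cx at HS21 as well. Of 18 signalling chemokine receptors 8 had enough counts, of which 7 were raised and 1, Ccr10 (log2 ratio −0.38, chosen after its values were seen), was lowered at HS21, and 1 of 7 was raised at HS14. Cxcr6, the receptor of Cxcl16 on T cells, was the one edgeR called at HS14 (DESeq2 called 4), with log2 ratios of 1.72 ± 0.35 at HS14 (adjusted P = 0.0312, edgeR) and 3.39 ± 0.56 at HS21 (adjusted P = 0.000754) in the Cx and 3.32 ± 0.49 in OM HS21 (adjusted P = 0.0278). Cxcr3, the receptor of Cxcl9 and Cxcl10, had 3.01 ± 0.67 in Cx HS21 (adjusted P = 0.0041), Ccr6 2.39 ± 0.45 (adjusted P = 0.00155) and Cxcr4 1.61 ± 0.34 (adjusted P = 0.00291). Cx3cr1 had 0.63 ± 0.19 (adjusted P = 0.0197), while its ligand Cx3cl1 did not pass. The atypical receptor Ackr3, which scavenges Cxcl12, had 0.29 ± 0.077 (adjusted P = 0.0106). Ccr1, Ccr2, Ccr3 and Cxcr2 had too few counts to be tested against LS. In OM HS21 Cxcr6 was the 1 called by edgeR of 7 testable signalling receptors. There 4 had an unadjusted P under 0.05, and DESeq2 called 6 of 16. Cxcr4 was not raised there (log2 ratio −0.18, adjusted P = 0.942, edgeR). On the LS diet Cxcr4 was higher in the OM than in the Cx (1.70, adjusted P = 0.00356, edgeR). Cxcr6, Cxcr3 and Ccr6 are carried by leukocytes, whose markers were also raised in Cx HS21. The part of those cells in the receptor values was not tested.

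**Figure D5:**
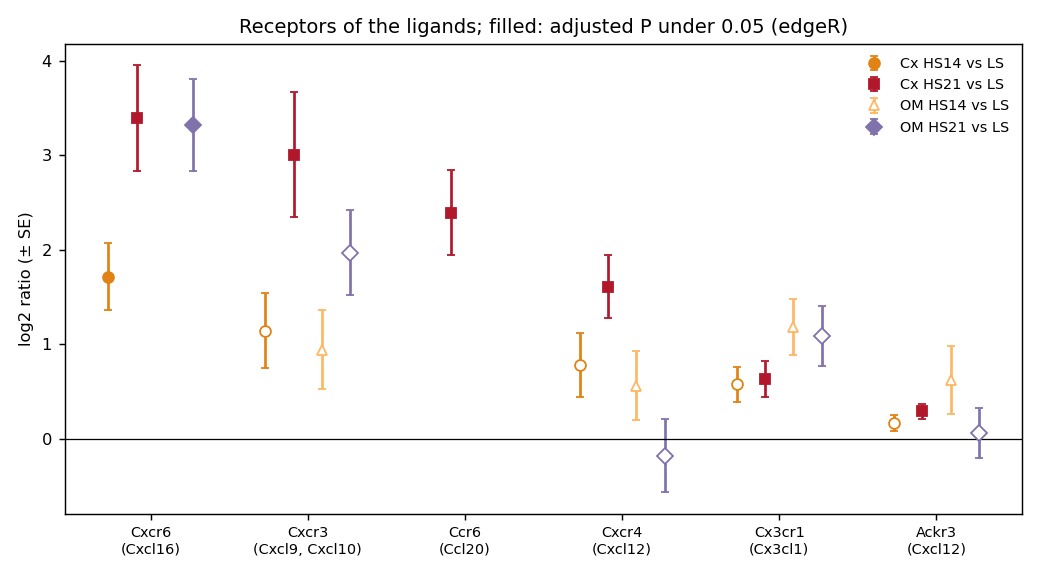
Log2 ratios to LS (± SE, edgeR) of 6 receptors paired with the ligands, named under each receptor, in 4 comparisons, filled where the adjusted P was under 0.05. Cxcr6 is filled in Cx HS14, Cx HS21 and OM HS21, and all 6 receptors are filled in Cx HS21.

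Other chemokine ligands were counted in the same way from a list of 26, of which 12 could be tested in the Cx. There 3 were raised at HS14 and 7 at HS21, and none was lowered. Ccl19, a ligand of Ccr7 on T cells and dendritic cells, had the largest ratios of those named, 2.12 ± 0.40 at HS14 (adjusted P = 0.0229, edgeR) and 3.75 ± 0.59 at HS21 (adjusted P = 0.000528). Ccl6 had 0.89 (adjusted P = 0.0152) and 2.06 (adjusted P = 0.000869). Ccl21 and Ccl28 did not pass at HS14 and rose at HS21, with 1.26 and 1.35. The others raised were Cxcl13 at both times and Cxcl11 and Ccl4 at HS21. In the OM edgeR called 0 of 13 at HS14 and 0 of 14 at HS21, with 1 and 6 at an unadjusted P under 0.05 and 0 and 4 called by DESeq2.

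On the LS diet 4 ligands differed between the zones, a share close to that over all genes. Cxcl9 and Cxcl12 were higher in the OM than in the Cx, 2 of 7 testable ligands where 21.3% of all genes were higher, and Ccl5 and Cxcl16 were lower, 2 of 7 where 19.5% were lower. Under total-count scaling 5546 genes were higher and 1842 lower in place of 3051 and 2794, and the median log2 ratio over all genes was 0.27 in place of 0.03. Cxcl16 was at 48.3 to 70.2 CPM in the OM and 72.3 to 172 CPM in the Cx (log2 ratio −1.22 ± 0.22, adjusted P = 0.00129, edgeR, n = 5 and 5). Ccl5 differed by −1.28 ± 0.27 (adjusted P = 0.0035), Cxcl12 by 0.76 ± 0.11 (adjusted P = 0.000421) and Cxcl9 by 1.53 ± 0.37 (adjusted P = 0.00715). These 4 calls held in all 10 fits without a library, while Ccl2 (0.85), Cxcl10 (0.80) and Cx3cl1 (−0.19) passed without OM LS replicate 2, with adjusted P = 0.0169, 0.0084 and 0.0173. With total counts Cx3cl1 changed sign, to 0.0413. With the replicate number as a block Cxcl10 passed as well (0.716, adjusted P = 0.0195).

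Whether the diet's effect differed between Cx and OM was tested as an interaction in 20 libraries, and edgeR called 0 of 10 ligands at either time. At HS14 it called 0% of 15091 genes, with 2 ligands and 3.70% of all genes at an unadjusted P under 0.05 and 8 genes called by DESeq2, and at HS21 0.665% of 15194 genes. Of those 67.3% were raised, or 51.4% with total-count scaling, and 2 ligands and 15.6% of all genes had an unadjusted P under 0.05. The ligands nearest to a call at HS21 were Ccl7, whose log2 ratio was lower in the OM by −2.61 ± 0.82 (adjusted P = 0.14), and Cx3cl1, whose ratio was higher by 0.47 ± 0.19 (adjusted P = 0.245). For Cxcl16, called in the OM alone, the difference was 0.45 ± 0.25 (adjusted P = 0.384), and for Cxcl10, called by edgeR in the Cx alone, −0.34 ± 0.64 (adjusted P = 0.835). Given SEs of this size, equal responses in both zones are not shown either.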

How the data were processed

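The authors aligned paired-end reads of poly(A)-selected, unstranded libraries to Ensembl Rnor_6.0 with HISAT2 2.0.5 and counted them per gene with featureCounts 1.5.0-p3; the submitters' processing notes also name StringTie 1.3.3b. The deposited values are whole, unnormalized counts per gene. The FPKM values deposited beside them are scaled by the authors per gene length and by DESeq2 size factors, as checked against the counts. The authors' own group means, fold changes and p-values in the same table were not used. Without strand, reads of overlapping antisense genes cannot be told apart. The chemokines and all lists were chosen with earlier results of these data known.

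Counts were tested with edgeR 4.0.16 in R 4.3.3: filterByExpr, TMM, glmQLFit and glmQLFTest between 5 and 5 libraries, Benjamini-Hochberg adjustment over all genes, calls at adjusted P under 0.05, SE from the same fit. Interaction fits used 20 libraries. Levels are TMM CPM over 30 libraries (prior count 2 for log2). No library was a copy of another in 60 pairs. Alternatives were DESeq2 size factors, total counts, no filter, DESeq2 1.42.0, limma 3.58.1 on log2(FPKM + 1), all 15 libraries of a tissue, the replicate block and leaving out each library. The fits were tested on simulated counts. Named were all 10 ligands, their paired receptors except those not reported, up to 4 genes of each other list with the smallest P in Cx HS21 against LS, and the 2 protein-coding genes nearest to each ligand by r. Ackr1 and Klrb1a were not analysed here, some list genes are not reported here, and symbols with more than 1 gene (Tnf, Ltb, Gzmb, Tnfsf11) were left out of lists. Promoter sequences are RefSeq's on GRCr8, and gene coordinates are the authors', on Rnor_6.0.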

Additional observations from a re-analysis of the deposited data

Results flagged for a closer look

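In 5 of 60 groups (10 ligands in 6 groups of 5 libraries) 1 library stood apart from the other 4 by Dixon's test on log2 CPM, where chance gives about 1 in 20. Cxcl10 in Cx HS14 replicate 8 was high at 4.06, with the others between 2.92 and 3.19. Cxcl10 in OM HS21 replicate 13 was low at 4.01, with the others between 5.35 and 5.44. Ccl20 in OM HS14 replicate 10, the library with the fewest counts, was low at −2.89 and had 0 counts. Ccl7 in Cx LS replicate 3 was high at −1.45, which is 3 read pairs. Cx3cl1 in Cx LS replicate 5 was low at 7.04, with the others between 7.32 and 7.41.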

How the results depend on the processing

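The 7 calls in Cx HS21 against LS, Cxcl1 in Cx HS14, Ccl5 and Cxcl9 from HS14 to HS21 in the Cx and the 4 calls between the zones on LS held in all 10 fits without a library and in all 6 other fits. In Cx HS21 an 8th ligand was raised without a filter, with DESeq2 and with the 15 libraries of the tissue. The number of ligands raised moved by more in other places. In Cx HS14 (1) it was 2 with total counts and 3 without a filter, with DESeq2 and with the 15 libraries of the tissue, and 1 to 2 when 1 library was left out. In Cx HS21 against HS14 (2) it was 4 with total counts and with DESeq2, and 2 to 4 without a library, reaching 4 without HS21 replicate 13. In OM HS14 (0) and OM HS21 against HS14 (0) DESeq2 gave 2 and 3. In OM HS21 against LS (3) it was 1 with total counts, 5 with DESeq2 and 0 to 3 without a library, with 0 without LS replicate 3 or HS21 replicate 14 or 15. Between the zones on LS (2) it was 3 without a filter and with DESeq2 (and 3 in place of 2 lowered in both), 4 with total counts and 2 to 4 without a library, reaching 4 without OM LS replicate 2. The number lowered in Cx HS21 ranged from 0 to 1 (Cx3cl1, without LS replicate 5). The cause was not tested. The percentages of all genes called that are given above come from the main edgeR fits. They are no background for the ligand counts of DESeq2 or the other fits.

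Signs turned only where the reported value had not passed the test. With total counts Cx3cl1 was 0.0413 between the zones, and in OM HS21 against HS14 Cx3cl1 was 0.0293 and Cxcl12 0.0263. With limma the HS14 interaction was −0.127 for Ccl5 and −0.222 for Cxcl1, and the HS21 interaction 0.0413 for Cxcl10. Without a library, Cx HS14 against LS ranged from −0.0797 to 0.0296 for Cx3cl1 and −0.132 to 0.118 for Cxcl16, and Cx HS21 against HS14 from −0.5 to 0.244 for Ccl2 and −0.154 to 0.306 for Ccl20. OM HS21 against HS14 ranged from −0.603 to 0.000444 for Ccl2, −0.266 to 0.445 for Ccl7, −0.092 to 0.0978 for Cx3cl1 and −0.107 to 0.0845 for Cxcl12. The HS14 interaction ranged from −0.116 to 0.317 for Ccl5, −0.521 to 0.496 for Cxcl1 and −0.573 to 0.0912 for Cxcl9, and the HS21 interaction from −1.49 to 0.236 for Ccl20, −0.0393 to 1.06 for Ccl5 and −0.572 to 0.0736 for Cxcl10.

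In 12 of 15 pairs of Cx and OM libraries with the same number the deviations from the group means had an r over 0.1 (range −0.0819 to 0.508), and 13 of 15 matched their own number best, so most pairs deviated together. Since 3 pairs did not and no source ties the numbers to rats, the reported fits have no block. With the replicate block, 3 ligands were higher in OM LS than in Cx LS in place of 2 (Cxcl10 added, 0.716, adjusted P = 0.0195, edgeR), and the HS14 interaction turned to −0.0392 for Ccl5 and −0.145 for Cxcl1. No other call of a ligand changed. Counting depth limits Ccl7, Ccl20 and Cxcl1, with 1 to 35, 0 to 53 and 1 to 152 read pairs per library.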
